A study of Mus musculus with 6 samples.

Results

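The 10 genes described here are the 4 fibroblast growth factor (FGF) receptor genes Fgfr1, Fgfr2, Fgfr3 and Fgfr4, the ligand genes Fgf9 and Fgf18, and the feedback inhibitor genes Spry1, Spry2, Spry4 and Dusp6. They were chosen by name: each Entrez identifier in the count table that maps to one of these symbols was taken. That choice was made with earlier results of these data known. Of 27179 genes in the table, 10 are members, and all 10 had enough counts to be tested. All lie at a single locus each.

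Messenger RNA was measured by bulk RNA sequencing in epithelial cells of the mouse lung at E16.5 (embryonic day), a stage of branching and early sac formation. The Grhl2_cKO embryos were Shh-Cre;Grhl2f/-, with 1 floxed and 1 null allele of Grhl2, the gene of a grainyhead transcription factor of epithelia (n = 3, replicates 1, 5 and 10). The Control embryos were Shh-Cre;Grhl2f/+, with 1 floxed and 1 intact allele (n = 3, replicates 1, 3 and 7). Both groups carried Shh-Cre, which acts where Sonic hedgehog is expressed, so the Control epithelium can be down to 1 intact allele and is not an undeleted state. Each group held 2 male libraries and 1 female library, and in both groups cells were dissociated and taken by flow sorting for the surface protein EpCAM. The labels do not say whether a library is 1 embryo, so p-values measure the spread between these libraries.

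FGF ligands bind receptor tyrosine kinases on neighbouring cells, and the receptors pass the signal through the RAS, MAP kinase and PI3 kinase routes. Fgfr2, in its epithelial splice form, is the receptor for mesenchymal Fgf10 and is needed for lung buds to form and branch, while Fgf9 is made by the lung epithelium and mesothelium and acts largely on mesenchyme. Sprouty proteins and the phosphatase Dusp6 are induced by the pathway and restrain it, and so serve as readouts of its activity in many tissues.

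Library totals ran between 13472216 and 17228762 counts, so a member at 10 CPM (read counts relative to the TMM-scaled library size) rests on well over 100 counts in each library; the fewest counts behind a member were 55, for Fgf18 in Grhl2_cKO replicate 5. Grhl2 itself stood at 105.3, 109.1 and 115.2 CPM in Grhl2_cKO replicates 1, 5 and 10, against 149.0, 147.8 and 145.9 CPM in Control replicates 1, 3 and 7 (adjusted p = 0.0026 by edgeR, log2 fold change -0.43 ± 0.06 SE). The sources used here do not say which exons are floxed, so the remaining Grhl2 counts do not measure how complete the deletion was. Epithelial markers were present in all 6 libraries: Sftpc, a surfactant gene, was at 12580 CPM or more, Nkx2-1, the lung epithelial factor, at 597.5 CPM or more, and Cdh1, E-cadherin, at 583.1 CPM or more. Epcam, the gene of the sorted protein, was at 334.9 to 402.4 CPM in Grhl2_cKO libraries and 501.0 to 558.3 CPM in Control libraries (edgeR adjusted p = 0.00412). RNA from other cells was present: the summed level of 16 mesenchymal markers, Fgf10 among them, was 975 to 1939 CPM in Grhl2_cKO and 1009 to 1591 CPM in Control libraries, highest in Grhl2_cKO replicate 1, with Twist1 under 0.5 CPM throughout.

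Among the members, Fgfr1 was higher and Fgfr3 lower in Grhl2_cKO epithelium, and the other 8 did not pass the test. The 2 called members of 10 compare with 3.62% of the 14842 tested genes, 1.23% called higher and 2.39% called lower (quasi-likelihood test of edgeR, p-values adjusted by Benjamini-Hochberg over all tested genes, threshold 0.05). The same 2 members were also the only ones whose CPM did not overlap between genotypes, against 18.1% of all tested genes. Because the members and the lists further on were chosen with earlier results known, these shares are no test of them as a set. The median log2 fold change was -0.02 over the 10 members and -0.00 over all tested genes, with 4 members above 0 and 6 below. In bulk samples, fewer cells of a type and less RNA per cell cannot be told apart.

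**Figure D1:**
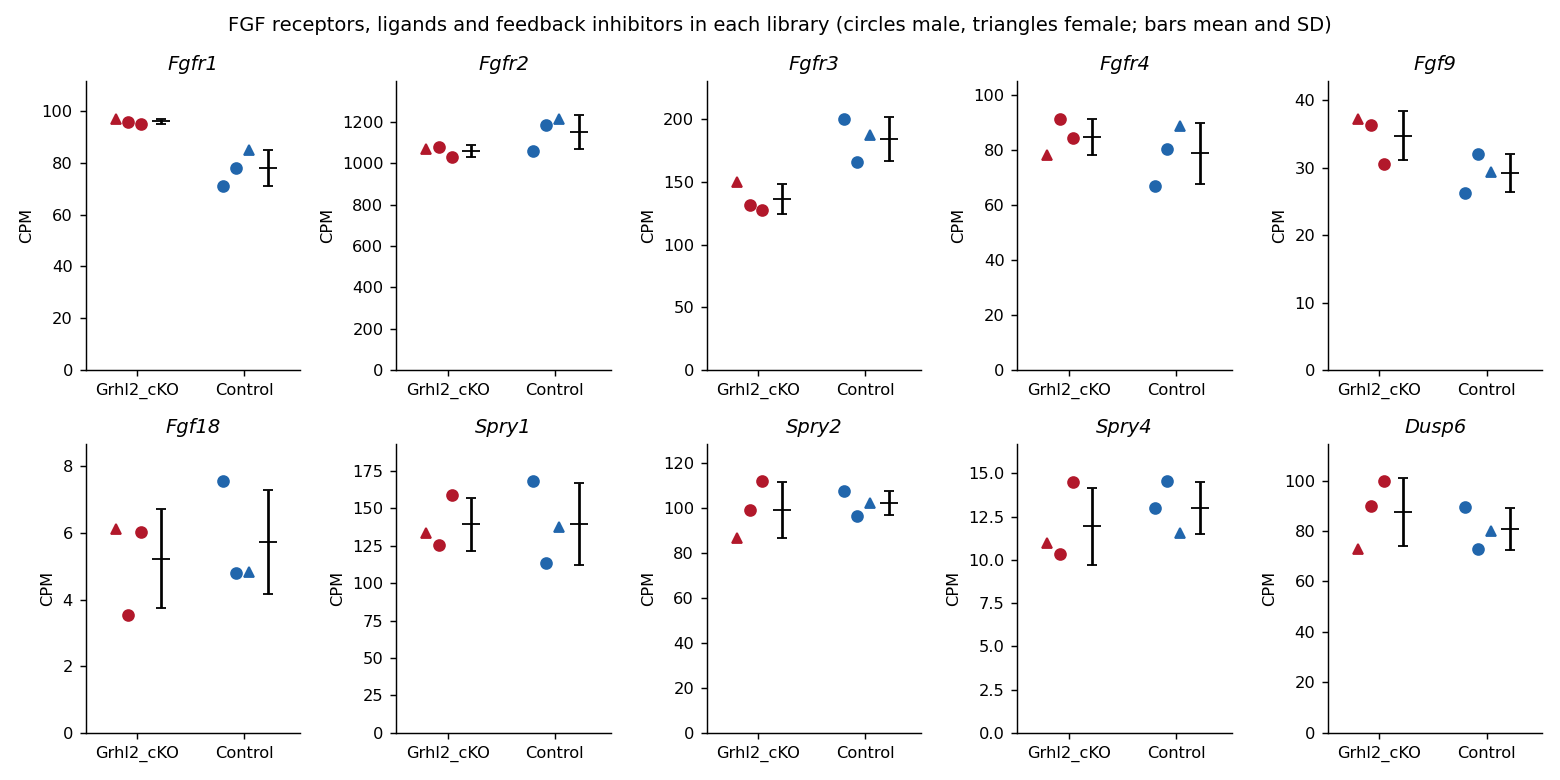
CPM of each member in each library (y axis, from 0), with the 3 Grhl2_cKO libraries on the left and the 3 Control libraries on the right of each panel, circles for male and triangles for female, and mean and SD beside them. The groups are apart for Fgfr1, with 95.1 to 96.9 CPM in Grhl2_cKO and 71.1 to 84.7 CPM in Control, and for Fgfr3, with 127.4 to 149.8 CPM in Grhl2_cKO and 165.6 to 200.4 CPM in Control, and overlap in the other 8 panels.

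Levels of different genes can be compared only per length, here as RPKM (CPM per kilobase of the exon length in the deposited table). In Grhl2_cKO epithelium, Fgfr2 averaged 198 RPKM, Spry1 55.9, Spry2 47.5, Dusp6 31.3, Fgfr3 31.0, Fgfr4 26.9, Fgfr1 19.2, Fgf9 8.39, Fgf18 4.82 and Spry4 2.60. In Control epithelium, Fgfr2 averaged 215 RPKM, Spry1 56.0, Spry2 48.9, Fgfr3 41.9, Dusp6 28.9, Fgfr4 25.1, Fgfr1 15.6, Fgf9 7.06, Fgf18 5.27 and Spry4 2.84. Fgfr2 stood above each other member in each library. Neighbours in the Control order whose ranges overlapped in both groups were Spry1 with Spry2 and Dusp6 with Fgfr4. Fgfr3 overlapped Dusp6 in Grhl2_cKO libraries, at 29.0 to 34.1 RPKM for Fgfr3 and 26.1 to 35.6 RPKM for Dusp6, and stood above it in Control libraries, at 37.7 to 45.6 RPKM for Fgfr3 and 26.1 to 32.1 RPKM for Dusp6. Fgfr3 also overlapped Fgfr4 in Grhl2_cKO libraries, where Fgfr4 was at 24.9 to 29.1 RPKM. In Control libraries Fgfr4 was at 21.3 to 28.3 RPKM, below Fgfr3. Fgf9 overlapped Fgf18 in Control libraries and not in Grhl2_cKO libraries.

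Of the ligands, Fgf9 (Entrez 14180, GRCm38.p6 chromosome 14, 58070671 to 58112854), which maintains the mesenchyme around the lung epithelium, was at 37.3, 36.3 and 30.6 CPM in Grhl2_cKO replicates 1, 5 and 10 and at 26.3, 32.0 and 29.4 CPM in Control replicates 1, 3 and 7. A Grhl2_cKO library at 30.6 CPM lay below a Control library at 32.0 CPM, so the groups overlapped. The log2 fold change was 0.25 ± 0.10 SE with a 95% interval of 0.02 to 0.47, and the gene did not pass the adjusted threshold (edgeR adjusted p = 0.312, unadjusted p = 0.0353). Fgf18 (Entrez 14172, chromosome 11, 33116970 to 33147400), a ligand with roles in lung mesenchyme and cartilage, was at 6.13, 3.53 and 6.03 CPM in Grhl2_cKO libraries and at 7.54, 4.81 and 4.84 CPM in Control libraries. Its groups overlapped, and its interval, -0.67 to 0.44 on the log2 scale, was the widest of the 10 members (edgeR adjusted p = 0.953).

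Fgfr1 (Entrez 14182, chromosome 8, 25518759 to 25575718), a receptor through which lung mesenchyme responds to Fgf9, was at 96.9, 95.8 and 95.1 CPM in Grhl2_cKO replicates 1, 5 and 10 and at 71.1, 78.1 and 84.7 CPM in Control replicates 1, 3 and 7. Each Grhl2_cKO library lay above each Control library, and the Grhl2_cKO libraries were the closer together (SD 0.922 CPM in Grhl2_cKO and 6.82 CPM in Control, n = 3 each). Mean CPM was 1.23-fold that of Control (log2 fold change 0.30 ± 0.07 SE, 95% interval 0.14 to 0.45, edgeR adjusted p = 0.0449). The call lies near the threshold: it held in 9 of 17 alternatives, among them DESeq2 (adjusted p = 0.0116) and limma-voom (0.0441), and was lost with total-count scaling (edgeR adjusted p = 0.056), with no low-count filter (0.0552), with male libraries alone (0.0701) and without Control replicate 1 (0.0802), Control replicate 3 (0.146), or Grhl2_cKO replicate 1 (0.124), 5 (0.135) or 10 (0.106). The log2 fold change was above 0 in all 17, at 0.25 to 0.36.

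Fgfr2 (Entrez 14183, chromosome 7, 130162451 to 130266808), the main receptor of the lung epithelium, was at 1069, 1080 and 1028 CPM in Grhl2_cKO libraries and at 1059, 1182 and 1214 CPM in Control libraries. Control replicate 1 lay among the Grhl2_cKO libraries and the groups overlapped. Its log2 fold change of -0.12 ± 0.08 SE had a 95% interval of -0.29 to 0.05 (edgeR adjusted p = 0.625). Counts per gene do not separate the epithelial and mesenchymal splice forms of the receptors.

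Fgfr3 (Entrez 14184, chromosome 5, 33721724 to 33737068), a receptor that lung epithelium expresses beside Fgfr2 and that in mice acts with Fgfr4 in the later building of alveoli, was at 149.8, 131.5 and 127.4 CPM in Grhl2_cKO replicates 1, 5 and 10 and at 200.4, 165.6 and 187.3 CPM in Control replicates 1, 3 and 7. Each Grhl2_cKO library lay below each Control library. Mean CPM was 73.9% of that of Control (log2 fold change -0.44 ± 0.08 SE, 95% interval -0.62 to -0.25, edgeR adjusted p = 0.0198). The call held in 14 of 17 alternatives, including DESeq2 (adjusted p = 0.000149), and was lost without Control replicate 7 (edgeR adjusted p = 0.0598) and without Grhl2_cKO replicate 10 (0.0863) or 5 (0.0835). The log2 fold change was below 0 in all 17, at -0.51 to -0.36.

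The 250 bases before the first annotated start of Fgfr3 are shown because Fgfr3 is the called receptor with a promoter entry (RefSeq, GRCm38.p6, chr5:33721474-33721723, plus strand, 5′ to 3′), all in lower case since no searched motif occurs in it.
Fgfr3 promoter: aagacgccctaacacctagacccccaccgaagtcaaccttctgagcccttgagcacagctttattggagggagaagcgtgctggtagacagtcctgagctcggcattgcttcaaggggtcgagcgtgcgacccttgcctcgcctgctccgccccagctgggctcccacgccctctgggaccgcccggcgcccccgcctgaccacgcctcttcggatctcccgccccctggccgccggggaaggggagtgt
The stretch is 66.8% G and C with 19 CG pairs, against medians of 52.4% and 6 over the 32851 windows of the same length in the RefSeq table. The motifs searched, on both strands, were AACCGGTT, the grainyhead core; its looser form AACNNGTT, which contains it; and CCGGAAGT, the letters bound by ETS factors such as Etv4 and Etv5. They occur in 0.116%, 3.64% and 2.88% of all windows. None occurs in either of 2 Fgfr3 windows.

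Fgfr4 (Entrez 14186, chromosome 13, 55152818 to 55168759) was at 78.3, 91.4 and 84.3 CPM in Grhl2_cKO libraries and at 67.1, 80.5 and 88.9 CPM in Control libraries. The groups overlapped, and the log2 fold change was 0.10 ± 0.10 SE (95% interval -0.12 to 0.32, edgeR adjusted p = 0.814).

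**Figure D2:**
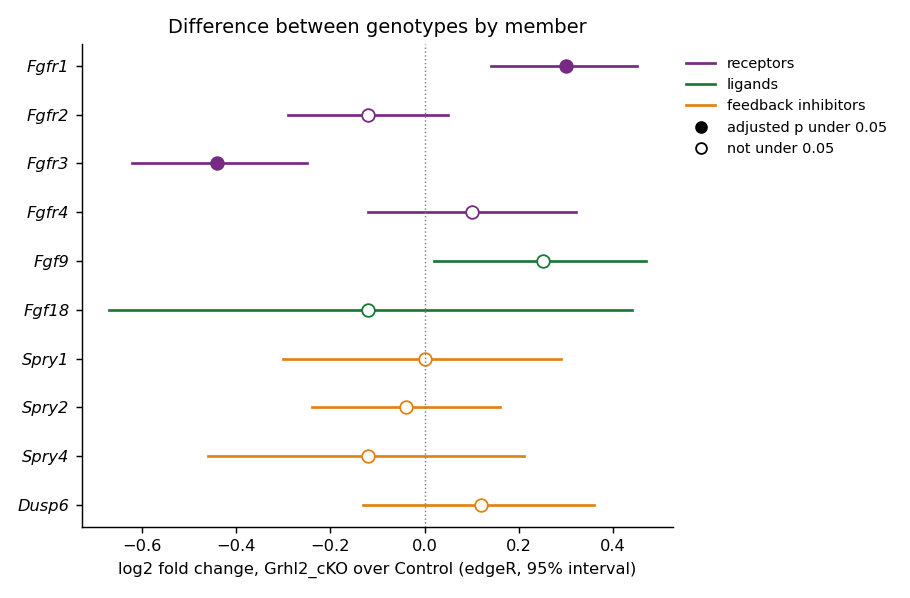
Log2 fold change of Grhl2_cKO over Control for each member (x axis, edgeR) with its 95% interval, coloured by role, filled where the adjusted p was under 0.05. Fgfr1 lies at 0.30 and Fgfr3 at -0.44, on opposite sides of 0, and of the other 8 intervals that of Fgf9, at 0.02 to 0.47, is the one that leaves out 0 before adjustment.

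Receptors that differ in opposite directions were also compared with each other inside each library, where scaling cancels. The log2 ratio of Fgfr1 to Fgfr3 counts was -0.63, -0.46 and -0.42 in Grhl2_cKO replicates 1, 5 and 10 and -1.49, -1.09 and -1.14 in Control replicates 1, 3 and 7. The groups did not overlap, and the ratio was 1.67-fold higher in Grhl2_cKO (difference of means 0.74 on the log2 scale; two-sided exact permutation p = 0.1, the smallest that 3 libraries against 3 can give, 0.15 adjusted over the 6 receptor pairs). Fgfr1 alone was higher without overlap and Fgfr3 alone lower without overlap, so their ratio could not overlap and its p was fixed. The ratio gives the size of the gap and is no separate support for it. The difference in the ratio stayed between 0.61 and 0.82 when any 1 library was left out.

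The ratio of Fgfr1 to Fgfr2 was the tightest, at -3.46 ± 0.03 in Grhl2_cKO and -3.89 ± 0.04 in Control libraries (mean log2 ratio ± SD, n = 3 each; difference 0.42, exact permutation p = 0.1, adjusted 0.15). Fgfr3 to Fgfr4 was 0.69 ± 0.22 in Grhl2_cKO and 1.23 ± 0.30 in Control libraries (difference -0.55), and Fgfr2 to Fgfr4 was 3.65 ± 0.11 in Grhl2_cKO and 3.87 ± 0.10 in Control libraries (difference -0.23). Neither of these overlapped between groups, each at the smallest exact permutation p of 0.1 (adjusted 0.15). For Fgfr2 to Fgfr4 the groups all but touched, with Grhl2_cKO replicate 1 and Control replicate 7 both at 3.77. Fgfr1 to Fgfr4 (difference 0.19) and Fgfr2 to Fgfr3 (difference 0.32) overlapped between groups, both with exact permutation p = 0.2. With 3 libraries a group, none of the 6 pairs could pass a threshold of 0.05.

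Per length, Fgfr2 made up 72.0 ± 0.13% of the 4 receptors' summed RPKM in Grhl2_cKO and 72.3 ± 1.39% in Control libraries (SD, n = 3 each). Fgfr1 made up 6.97 ± 0.14% in Grhl2_cKO and 5.22 ± 0.15% in Control libraries, without overlap. Fgfr3 made up 11.3 ± 0.86% in Grhl2_cKO and 14.1 ± 1.96% in Control libraries, also without overlap, and Fgfr4 made up 9.79 ± 0.75% in Grhl2_cKO and 8.39 ± 0.68% in Control libraries, with overlap. The sum of the 4 was 278.2, 280.0 and 267.0 RPKM in Grhl2_cKO libraries and 279.1, 299.9 and 314.8 RPKM in Control libraries, with one Grhl2_cKO library just above the lowest Control library. These shares describe the libraries and were not tested.

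**Figure D3:**
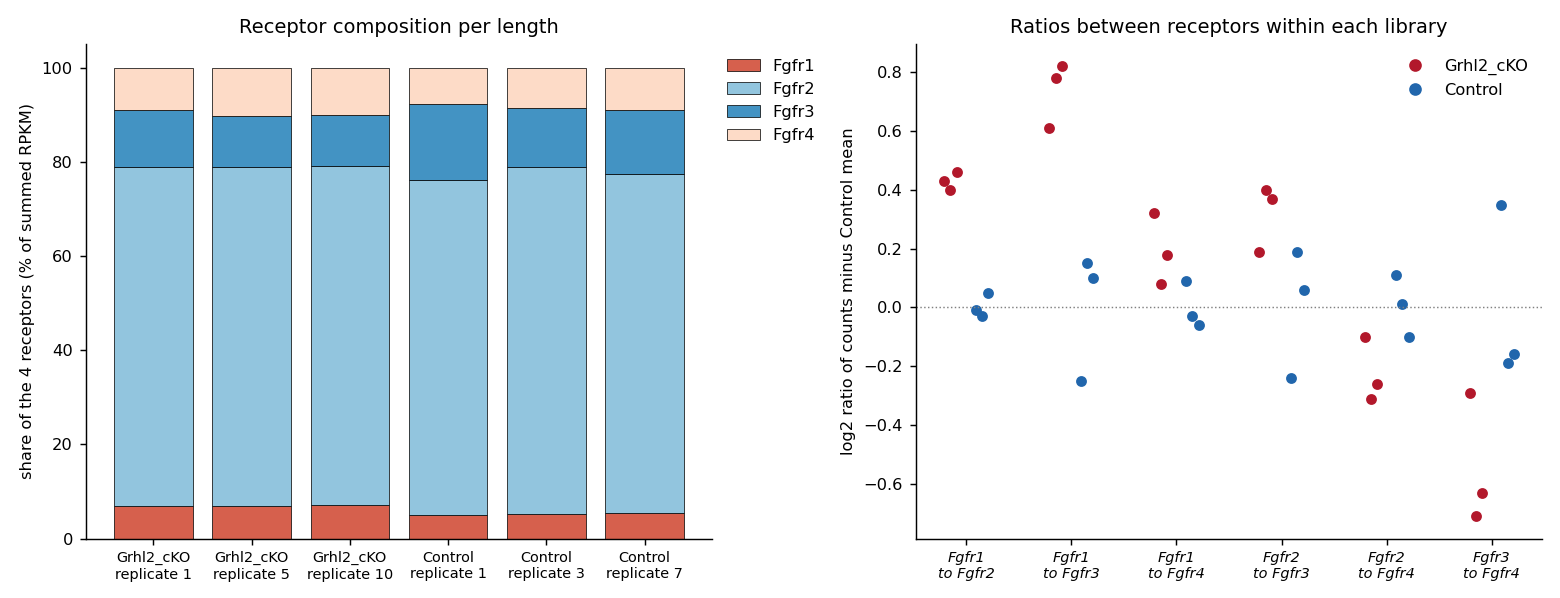
Left, share of each receptor in the summed RPKM of the 4 (y axis, percent) in each library, Grhl2_cKO first; right, log2 ratio of counts for each of the 6 receptor pairs minus the Control mean (y axis), 1 point a library, Grhl2_cKO in red left of Control in blue. Fgfr2 holds 71.0% to 73.7% in all 6 libraries, and Fgfr1 to Fgfr3 shows the widest gap between genotypes, 0.74 in mean.

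Spry1 (Entrez 24063, chromosome 3, 37639947 to 37644599), which restrains receptor tyrosine kinase signalling, was at 133.5, 125.2 and 158.7 CPM in Grhl2_cKO libraries and at 167.8, 113.3 and 137.5 CPM in Control libraries. Control held both the highest and the lowest library. The log2 fold change was -0.00 ± 0.13 SE (95% interval -0.30 to 0.29, edgeR adjusted p = 0.998). Spry2 (Entrez 24064, chromosome 14, 105891947 to 105896819), the sprouty of the tips of growing lung buds, was at 86.7, 99.1 and 111.7 CPM in Grhl2_cKO libraries and at 107.5, 96.5 and 102.3 CPM in Control libraries. The Grhl2_cKO libraries lay on both sides of the Control libraries (log2 fold change -0.04 ± 0.09 SE, 95% interval -0.24 to 0.16, edgeR adjusted p = 0.952). Spry4 (Entrez 24066, chromosome 18, 38586247 to 38601347), a further sprouty, was at 10.99, 10.3 and 14.5 CPM in Grhl2_cKO libraries and at 12.99, 14.5 and 11.5 CPM in Control libraries. Its groups overlapped too, with a log2 fold change of -0.12 ± 0.15 SE (95% interval -0.46 to 0.21, edgeR adjusted p = 0.874).

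Dusp6 (Entrez 67603, chromosome 10, 99263231 to 99267489), a phosphatase that removes the activating phosphates from the MAP kinases ERK1 and ERK2, was at 73.1, 89.9 and 99.6 CPM in Grhl2_cKO libraries and at 89.7, 72.9 and 79.8 CPM in Control libraries. The groups overlapped, with a log2 fold change of 0.12 ± 0.11 SE (95% interval -0.13 to 0.36, edgeR adjusted p = 0.813). The intervals of the 4 feedback inhibitors reach down to 0.727-fold, in that with the lowest level, and up to 1.29-fold, in Dusp6. For each gene, shifts inside its own interval remain possible with these libraries.

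Among the member windows, that of Dusp6 is the one with a motif match, AACNNGTT as AACCTGTT in capitals, starting 100 bases before the gene's start (RefSeq, GRCm38.p6, chr10:99262981-99263230, plus strand, 5′ to 3′).
Dusp6 promoter: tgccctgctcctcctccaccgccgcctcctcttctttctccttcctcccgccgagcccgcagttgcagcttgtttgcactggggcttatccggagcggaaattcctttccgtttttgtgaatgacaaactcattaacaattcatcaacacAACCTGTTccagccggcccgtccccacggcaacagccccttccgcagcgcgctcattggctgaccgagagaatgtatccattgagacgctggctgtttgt
The 8 members whose windows were searched have 9 windows in all, Fgfr3 having 2. No window of Fgfr1 or Spry4 was searched, so whether these hold a match is not known here. Their G and C content runs between 44% in Fgfr2 and 77.2% in Fgf18. A match is a run of letters and says nothing of binding.

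The wider pathway was read from lists of 108 further genes, of which 92 could be tested. Of these, 2 rose and 2 fell, against the 1.23% of all tested genes called higher and 2.39% called lower, and the median log2 fold change was 0.00. CPM did not overlap between genotypes for 14 of the 92 upward (8.17% of all tested genes) and 11 downward (9.89%).

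Among 20 other ligands, 7 were tested and 1 passed. Fgf1, a ligand that binds all FGF receptors, fell to 125.9, 112.5 and 104.4 CPM in Grhl2_cKO libraries, against 147.8, 149.2 and 146.2 CPM in Control libraries. The groups did not overlap, and the Control libraries were nearly level (log2 fold change -0.37 ± 0.07 SE, adjusted p = 0.0187 by edgeR). The call was lost without Control replicate 3 or 7 or Grhl2_cKO replicate 5 or 10 (edgeR adjusted p = 0.0517 to 0.0785). Fgf10 was at 4.91 to 5.78 CPM in Grhl2_cKO and 5.16 to 7.79 CPM in Control libraries (edgeR adjusted p = 0.64), and Fgf7 at 1.12 to 1.98 CPM in Grhl2_cKO and 1.10 to 1.70 CPM in Control libraries (adjusted p = 0.983). Both are mesenchymal ligands that signal to the epithelial Fgfr2.

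Of 21 tested co-receptors and ligand binders, 2 rose (1.23% of all tested genes were called higher) and none fell (2.39% called lower). In 16 the log2 fold change was above 0, as in 7203 of all 14842 tested genes. In CPM, 7 lay wholly above Control (8.17% of all tested genes did) and 0 wholly below (9.89%). Sulf2, an enzyme that trims sulfate from heparan sulfate and so alters FGF binding, was at 64.3, 64.7 and 76.4 CPM in Grhl2_cKO libraries and at 43.5, 49.9 and 42.2 CPM in Control libraries. Its groups were well apart, with mean CPM 1.52-fold that of Control (adjusted p = 0.00573 by edgeR, log2 fold change 0.60 ± 0.09 SE), and it was called in all 17 alternatives. Gpc6, a cell-surface heparan sulfate proteoglycan, was at 85.1, 87.1 and 86.7 CPM in Grhl2_cKO libraries and at 64.7, 71.7 and 70.9 CPM in Control libraries (log2 fold change 0.32 ± 0.06 SE, edgeR adjusted p = 0.0184). Its call was lost without Grhl2_cKO replicate 5 (0.0755) or 10 (0.0628) and in males alone (0.0833). The related Gpc3 was at 658.4, 674.1 and 769.0 CPM in Grhl2_cKO libraries and at 583.7, 575.6 and 561.0 CPM in Control libraries, without overlap, and missed the threshold (edgeR adjusted p = 0.0637, under 0.05 in 5 of 17 alternatives).

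None of the 25 relay genes between receptor and MAP kinase passed the test at an adjusted p under 0.05. Their log2 fold changes lay between -0.25 and 0.30, with 16 below 0 and 9 above. In CPM, 4 lay wholly below Control (9.89% of all tested genes did) and 1 wholly above (8.17%). The lowest adjusted p was that of Gab1, an adaptor that links receptors to PI3 kinase and SHP2, at 94.5 to 101.5 CPM in Grhl2_cKO and 111.1 to 125.8 CPM in Control libraries (edgeR adjusted p = 0.0725). Of 15 tested further feedback inhibitors, none passed. In CPM, 3 lay wholly above Control (8.17% of all tested genes did) and 0 wholly below (9.89%). Il17rd, the membrane inhibitor Sef, was at 11.5, 12.6 and 11.2 CPM in Grhl2_cKO libraries and at 9.33, 9.37 and 9.29 CPM in Control libraries (edgeR adjusted p = 0.17). Spred3 and Dusp7 also lay wholly above Control (edgeR adjusted p = 0.258 for Spred3 and 0.181 for Dusp7), while Spred1 (adjusted p = 0.752) and Spred2 (0.985) overlapped it.

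Of 19 tested transcriptional targets, 1 fell and none rose, while 5 lay wholly below Control in CPM (9.89% of all tested genes did) and 3 wholly above (8.17%). Phlda1, which many growth factors induce, was at 77.6, 69.6 and 78.7 CPM in Grhl2_cKO libraries and at 93.6, 90.1 and 103.9 CPM in Control libraries (log2 fold change -0.35 ± 0.07 SE, edgeR adjusted p = 0.0298), a call that held in 11 of 17 alternatives. Etv5, an ETS factor that reports FGF activity in lung tips, was at 979.4, 1061 and 986.1 CPM in Grhl2_cKO libraries and at 853.9, 1111 and 1039 CPM in Control libraries. Its groups overlapped (log2 fold change 0.01 ± 0.10 SE, edgeR adjusted p = 0.993), as did those of the related Etv4, at 26.5 to 34.9 CPM in Grhl2_cKO and 28.4 to 38.7 CPM in Control libraries (adjusted p = 0.737). Ccnd1, cyclin D1, was at 319.0 to 353.8 CPM in Grhl2_cKO and 261.1 to 294.8 CPM in Control libraries (edgeR adjusted p = 0.0574, under 0.05 in 4 of 17 alternatives).

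Junb, an immediate early gene, was at 133.3, 114.2 and 144.9 CPM in Grhl2_cKO libraries and at 261.8, 154.8 and 198.4 CPM in Control libraries. The groups did not overlap, and the gene missed the threshold (adjusted p = 0.0591 by edgeR, log2 fold change -0.65 ± 0.16 SE). Of the other genes of this kind in the lists, Egr1 (edgeR adjusted p = 0.206), Fos (0.308) and Ier2 (0.202) lay wholly below Control in CPM and did not pass, while Ier3 (0.72), Dusp1 (0.951) and Myc (0.672) overlapped it and Fosl1 had too few counts to be tested. These 7 were named after their values were seen. Esrp1 and Esrp2, splicing factors that favour the epithelial forms of the FGF receptors, had log2 fold changes of -0.06 ± 0.05 for Esrp1 and -0.17 ± 0.07 for Esrp2 (SE; edgeR adjusted p = 0.785 for Esrp1 and 0.329 for Esrp2).

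**Figure D4:**
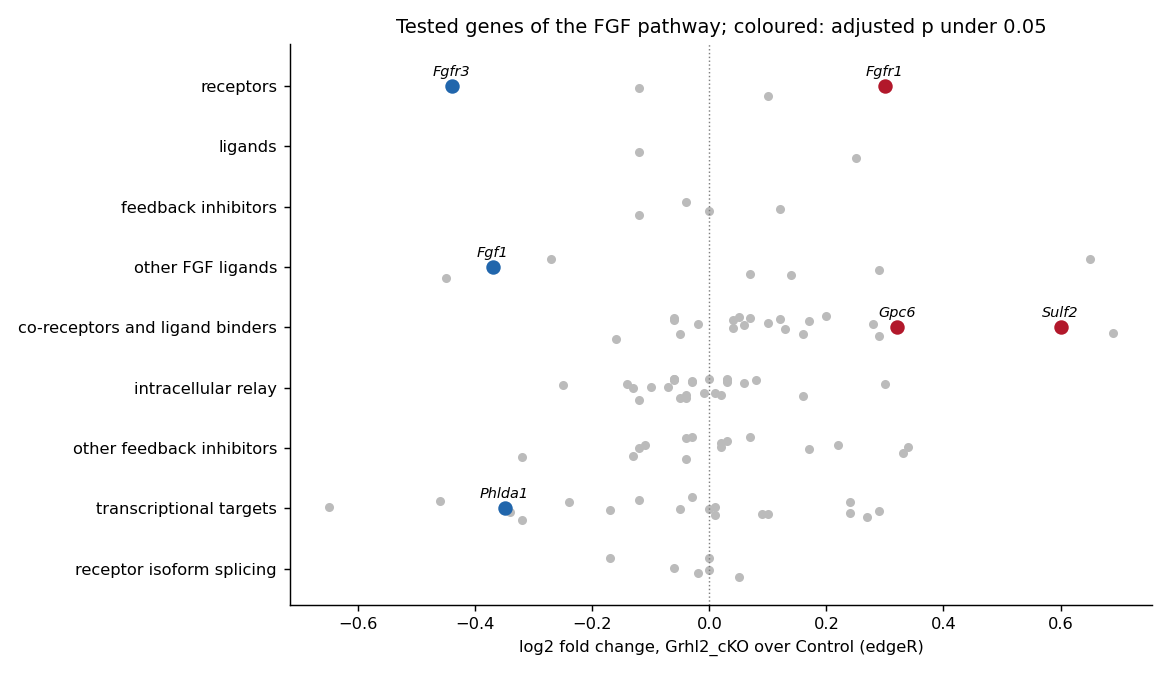
Log2 fold change of Grhl2_cKO over Control (x axis, edgeR) for each tested gene of the pathway, 1 row for each list, coloured and named where the adjusted p was under 0.05. Fgfr1, Gpc6 and Sulf2 are called to the right of 0 and Fgfr3, Fgf1 and Phlda1 to the left, and the grey points, not called, lie between -0.65 and 0.69.

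Markers of other cell classes are set beside the receptor results. The counts of called markers below stand beside 1.23% of all tested genes called higher and 2.39% called lower. The 8 ciliated-cell markers summed to 127.3 to 159.2 CPM in Grhl2_cKO and 209.8 to 229.1 CPM in Control libraries, and 6 were called lower. The 6 secretory-cell markers summed to 100.5 to 199.7 CPM in Grhl2_cKO and 241.3 to 330.8 CPM in Control libraries, and 3 were called lower. Nerve markers summed to 12.2 to 22.0 CPM in Grhl2_cKO and 9.03 to 11.8 CPM in Control libraries (2 of 6 tested called higher), and heart muscle markers to 227 to 443.4 CPM in Grhl2_cKO and 171.6 to 202.6 CPM in Control libraries (1 of 9 tested called higher). The called heart muscle marker was Myh7, at 200.5, 191.5 and 195.8 CPM in Grhl2_cKO libraries and 146.5, 138.4 and 139.1 CPM in Control libraries. The other heart muscle markers overlapped Control, so in Grhl2_cKO replicates 5 and 10 the higher sum came from Myh7. Myh6 was at 76.36, 11.04 and 9.288 CPM in Grhl2_cKO replicates 1, 5 and 10 and 9.186 to 14.41 CPM in Control libraries. None of the 15 tested mesenchymal and none of the 12 endothelial markers was called, and the endothelial sum was 236.7 to 253.8 CPM in Grhl2_cKO and 190.8 to 265.1 CPM in Control libraries. Among markers of the alveolar lineages, 2 of 8 type 1 genes were called higher, with sums of 1453 to 1705 CPM in Grhl2_cKO and 1234 to 1614 CPM in Control libraries, and 2 of 8 type 2 genes lower, with sums of 17020 to 20850 CPM in Grhl2_cKO and 17710 to 19510 CPM in Control libraries. No mesothelial or blood and immune marker was called of 6 tested in each. The part of these classes in the Fgfr1 and Fgfr3 differences was not tested. The mesenchymal and heart muscle sums were highest in Grhl2_cKO replicate 1, and without that library the log2 fold change was 0.29 for Fgfr1 (edgeR adjusted p = 0.124) and -0.51 for Fgfr3 (adjusted p = 0.0139).

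The genotype differences were also compared between the sexes: with a sex by genotype term, 17 of 14842 genes passed edgeR's test and none of the 10 members did, although 1 member had an unadjusted p under 0.05 and each group had only 1 female library. With male libraries alone, the log2 fold change was 0.355 for Fgfr1 and -0.50 for Fgfr3, the call of Fgfr3 holding (edgeR adjusted p = 0.0305).

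**Figure D5:**
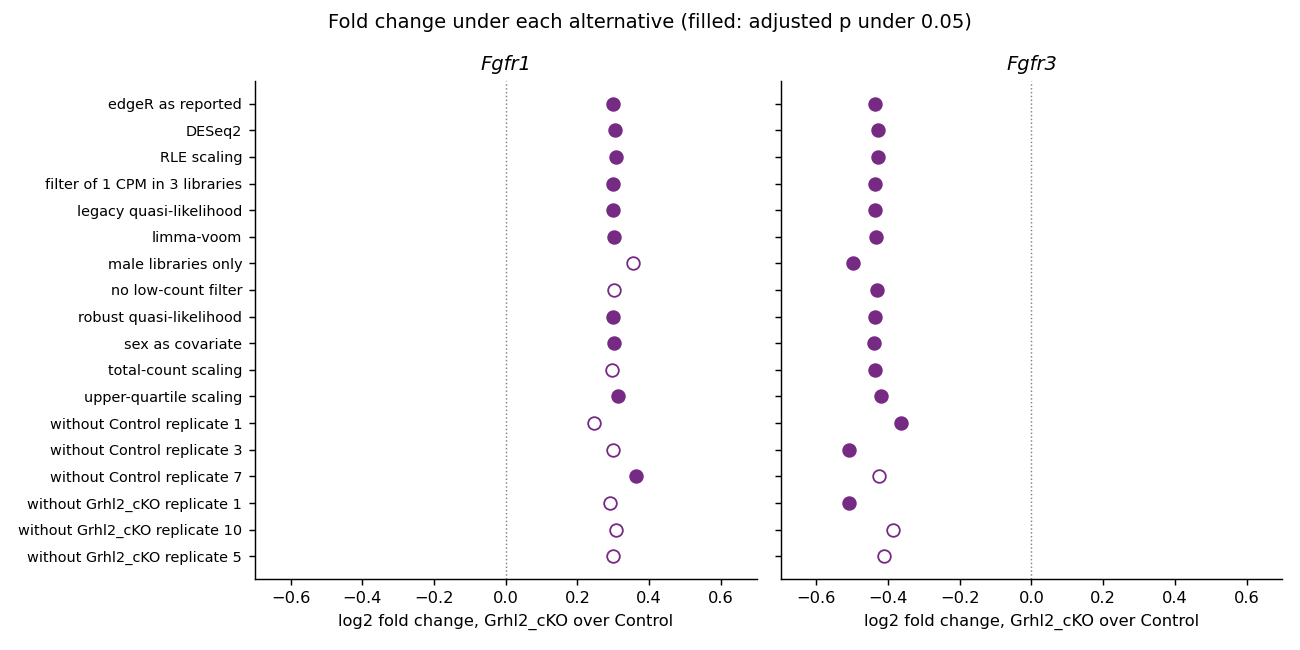
Log2 fold change of Grhl2_cKO over Control (x axis) for Fgfr1 (left) and Fgfr3 (right) under each alternative (y axis), filled where the adjusted p was under 0.05. All values lie right of 0 for Fgfr1, at 0.25 to 0.36, and left of 0 for Fgfr3, at -0.51 to -0.36, while the open points show where a call was lost.

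The tested genes most like each called receptor were found by the root mean square difference of mean-centred log2 CPM over the 6 libraries, among the 12193 tested genes whose mean count reached 50. For Fgfr1 they were Lrrc20 (0.028), Chst12, a chondroitin sulfotransferase (0.042), and Pnkd (0.044). For Fgfr3 they were Cds1, an enzyme of phosphatidylinositol synthesis (0.021), Tead3, a partner of the YAP coactivator (0.042), and Ttc38 (0.051). These are the closest of many profiles over 6 points that include the genotype difference, and the likeness carries no test. Between genotypes, Pnkd (edgeR adjusted p = 0.0464), Cds1 (0.0445) and Tead3 (0.0186) were called. Lrrc20 (edgeR adjusted p = 0.354), Chst12 (0.474) and Ttc38 (0.0619) were not.

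Some reads may be shared with neighbouring genes, since how strand was treated in counting is unknown here. In the GENCODE annotation, 9.93% of the exonic bases of Fgfr3 overlap G630022F23Rik on the opposite strand, 3.14% of those of Fgfr1 overlap Gm16159 on the opposite strand, 6.14% of those of Fgfr2 overlap Ctbp2 on the same strand, and 24.4% of those of Spry1 overlap Gm42922 on the opposite strand. The other 6 members share no exonic base.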

How the data were processed

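The deposited data are 1 table of raw read counts for 27179 Entrez genes, with a gene length, in 6 libraries of sorted lung epithelium. Per the labels' protocols, stranded libraries of polyadenylated RNA were made from frozen pellets of sorted cells and sequenced on a HiSeq instrument. Per the submitters' processing notes, the authors used bcl2fastq 2.17.1.14, featureCounts, edgeR 3.16.5 and limma 3.30.12 with the mm10 build. Not given in the sources used here are the aligner, the strand setting and how multiply mapping reads were handled.

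Symbols and coordinates came from a RefSeq gene table (GRCm38.p6), which matched 25275 identifiers (92.99%). The counts were tested with edgeR 4.0.16 in R 4.3.3: filterByExpr by group (counts of at least 10, totals of at least 15), TMM factors between 0.981 and 1.009, glmQLFit and glmQLFTest, no covariate, and Benjamini-Hochberg adjustment over 14842 genes at 0.05. The setting legacy=FALSE was chosen after both settings had been run, since it matches earlier processing of this series; the installed default, legacy=TRUE, calls 533 genes in place of 537 and the same 2 members. Standard errors (SE) were the absolute log2 fold change divided by the root of the F statistic, with a prior count of 0.125. The biological coefficient of variation was 9.52%. Receptor ratios use a prior count of 0.5 and a two-sided exact permutation test.

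The upper limit for a gene with no reads, 3 counts, corresponds to 0.174 to 0.223 CPM and covers counting error only. Alternatives were 3 other scalings (RLE, upper quartile, total count), 2 other filters, DESeq2 1.42.0, limma-voom (limma 3.58.1), robust fitting, sex as a covariate, male libraries alone, leaving out each library and, added after the data were seen, the legacy setting. Named genes are the 10 members, each called gene of the pathway lists and up to 3 of each list with the smallest p, 11 fixed genes, and the 3 genes most like each called member. The members and lists were chosen with earlier results of these data known. No per-sample column was left unused.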

Additional observations from a re-analysis of the deposited data

How the results depend on the processing

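The direction of Fgfr1, Fgfr2, Fgfr3, Fgfr4, Fgf9, Spry4 and Dusp6 and of the 6 receptor ratios was the same under each alternative run. The number of called members was 1 in place of 2 with male libraries alone, with no low-count filter and with total-count scaling, and 0 to 1 when a library was left out, being 0 without Grhl2_cKO replicate 5 or 10. The log2 fold change of Fgfr1, no longer past the threshold, was 0.355 in males alone, 0.30 with no filter and 0.30 with total-count scaling. With a library left out it was 0.25 to 0.36, losing the call at 0.25 to 0.31 in 5 fits and keeping it at 0.36 without Control replicate 7; that of Fgfr3 was -0.51 to -0.36 with a library left out. Fgfr1 and Fgfr3 were both called with DESeq2, limma-voom, RLE and upper-quartile scaling, robust and legacy fitting and sex as a covariate. The reported fit, with legacy=FALSE, was chosen after both settings had been run, and the legacy fit is an alternative added then. The number of called genes was 249 to 504 with a library left out (302 without Control replicate 3, 335 without Control replicate 7, 249 without Grhl2_cKO replicate 10, 257 without Grhl2_cKO replicate 5), with 78 to 221 higher and 166 to 338 lower; 90 were higher in males alone. Values near 0 changed sign: Spry1 was 0.16 without Control replicate 1 (-0.13 to 0.16 with a library left out), and Spry2 was 0.048 in males alone (-0.13 to 0.05 with a library left out). Fgf18 was 0.13 without Control replicate 1 and 0.10 without Grhl2_cKO replicate 5, against -0.12 as reported and -0.34 in males alone, and Fgf7 was -0.35 in males alone. None of these was past the threshold. The cause of these shifts was not tested. No paired analysis was run, because the replicate numbers in the labels do not define pairs of libraries. With 3 libraries a group and a coefficient of variation of 9.52%, small differences in Fgf18 and Spry4, the members of lowest CPM, were not detectable.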
